A study of Mus musculus with 10 samples.

Results

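Mouse duodenal organoids in the enterocyte medium ENRI were described by their nascent transcription and by their H3K27me3. The samples were chosen by their label: all libraries of the series that the labels place in ENRI and that carry global run-on sequencing (GRO-seq) or H3K27me3 chromatin immunoprecipitation, which gave 3 of 10 samples. They were 2 GRO-seq libraries and 1 H3K27me3 library. The organoids grew in Matrigel with EGF, Noggin and R-spondin, without Wnt3A or CHIR-99021 and with IWP-2, an inhibitor of Wnt secretion. The labels call this state enterocyte differentiation and set it beside a stem cell medium, WENRC, which has no values here. No genotype, strain, sex, age or time in the medium is given in the labels used here.

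GRO-seq labels and sequences RNA that is being made by engaged polymerases, so its reads fall on introns as well as exons and report transcription rather than the store of mature mRNA. H3K27me3, the trimethylation of lysine 27 of histone H3, is laid down by Polycomb repressive complex 2 (PRC2) and marks genes, above all developmental regulators, that a cell type keeps off. Absorptive enterocytes, the main cells of the villus, digest and take up nutrients at their brush border and export fat as lipoproteins.

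Both GRO-seq titles carry a mouse number, but the table's columns name only the medium and a batch, so the columns are called library 1 and library 2 after the batch in the table header. Values are RPKM (reads per kilobase of the whole gene body, scaled to the total of the column) over 24016 genes, of which 20617 are protein coding. The reads recovered from the table came to 29128101 in library 1 and 15787828 in library 2 over 33022 transcripts, and 3 reads on a gene of 1 kb correspond to 0.103 and 0.190 RPKM. Shares of reads below are taken of the sum over the 24016 genes with 1 transcript each, which was 18368188 and 10245627 reads. Reads where genes overlap can enter that sum more than once. A gene is called on when it reached 0.5 RPKM in both libraries, which 9267 of 24016 genes did (38.6%), and marked when a broad H3K27me3 region lay within 2 kb of its start, which was so for 2104 genes (8.76%). Each list count below is to be read beside these shares over all genes. Of the 9267 genes on, 160 were marked, and marked counts in lists that were mostly on are to be read beside this. The design has 1 group, 2 run-on libraries and 1 H3K27me3 library, so no test between groups was made. The files do not tie the H3K27me3 library to either mouse, and in bulk organoids fewer cells of a type and less RNA per cell cannot be told apart.

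The libraries stood apart in several ways, and every value below is therefore given for each. Across 10332 genes with a mean of at least 0.5 RPKM, the Pearson correlation of their log2 levels was 0.85 and the Spearman correlation 0.80, across genes, which are not independent replicates. With 0.5 RPKM added to each value, 185 of these genes (1.79%) were at least 4-fold higher in library 1 and 44 (0.426%) at least 4-fold higher in library 2. Among protein coding genes these counts were 50 and 2 of 9264. Xist, the RNA that coats the inactive X chromosome, had 0.0165 RPKM in library 1 and 5.88 in library 2. The Y-linked genes went the other way: Ddx3y had 1.54 and 0.00734 RPKM, Uty 0.896 and 0.000851, and Kdm5d and Eif2s3y had 0.747 and 0.853 RPKM in library 1 and no read in library 2. These genes were chosen after their values were seen.

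Promoters of 5 genes show the kinds of gene compared below: a strongly transcribed enterocyte gene without the mark, 2 neural factors inside long regions, the marked protein coding gene with the highest level, and a gene with neither mark nor reads. They come from RefSeq on GRCm38.p6, run from 250 bases before to 50 after the most upstream listed start, and are written in lower case with each CpG in capitals. The regions and gene positions elsewhere in the text are on mm9, so both sets of coordinates do not match, and the listed start may be another than that of the counted transcript. Apoa4 (chr9:46240594-46240893, plus strand) had 1 CpG in 300 bases. Pax2 (chr19:44746351-44746650, plus strand) had 7, Lhx2 (chr2:38339031-38339330, plus strand) had 34 and Atf3 (chr1:191183284-191183583, minus strand) had 27. Ackr1 (chr1:173333454-173333753, minus strand), a chemokine-binding receptor, had 4. The median of 27025 promoters in the RefSeq table, 1 for each gene, was 7 CpG, with quartiles of 3 and 20. A comparison of CpG content between marked and unmarked genes is void, because 74.9% of the marked protein coding genes had a promoter in the table, under the 80% set for such a check.
Apoa4: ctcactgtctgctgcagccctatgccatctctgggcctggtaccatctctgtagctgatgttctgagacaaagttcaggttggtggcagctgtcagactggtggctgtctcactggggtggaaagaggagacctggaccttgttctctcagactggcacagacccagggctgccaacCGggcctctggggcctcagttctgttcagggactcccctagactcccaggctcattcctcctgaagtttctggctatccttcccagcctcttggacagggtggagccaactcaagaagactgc
Pax2: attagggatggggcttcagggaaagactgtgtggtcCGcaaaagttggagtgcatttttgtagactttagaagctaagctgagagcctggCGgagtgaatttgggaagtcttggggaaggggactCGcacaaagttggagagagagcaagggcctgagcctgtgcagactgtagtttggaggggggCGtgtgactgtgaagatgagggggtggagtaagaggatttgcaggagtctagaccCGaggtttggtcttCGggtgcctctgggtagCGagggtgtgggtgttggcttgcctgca
Lhx2: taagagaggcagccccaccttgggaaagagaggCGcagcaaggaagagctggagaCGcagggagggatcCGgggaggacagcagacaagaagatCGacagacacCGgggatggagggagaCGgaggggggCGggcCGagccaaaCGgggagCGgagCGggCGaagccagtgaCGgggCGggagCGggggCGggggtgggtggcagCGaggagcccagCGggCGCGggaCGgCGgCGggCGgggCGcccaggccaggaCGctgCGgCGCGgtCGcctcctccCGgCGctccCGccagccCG
Atf3: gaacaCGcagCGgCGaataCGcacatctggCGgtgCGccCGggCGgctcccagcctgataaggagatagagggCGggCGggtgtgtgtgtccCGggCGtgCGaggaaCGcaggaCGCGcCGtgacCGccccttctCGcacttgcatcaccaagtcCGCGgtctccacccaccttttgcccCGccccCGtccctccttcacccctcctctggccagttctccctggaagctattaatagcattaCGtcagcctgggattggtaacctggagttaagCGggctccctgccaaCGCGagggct
Ackr1: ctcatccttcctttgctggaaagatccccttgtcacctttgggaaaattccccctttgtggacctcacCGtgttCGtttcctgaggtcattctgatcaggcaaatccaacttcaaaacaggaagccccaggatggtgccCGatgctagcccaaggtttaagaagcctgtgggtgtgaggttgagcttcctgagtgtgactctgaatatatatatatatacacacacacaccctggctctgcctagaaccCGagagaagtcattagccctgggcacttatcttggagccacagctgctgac

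The 5 markers of enterocytes were all transcribed strongly and none was marked. Apoa4, an apolipoprotein of fat absorption, had 254 RPKM in library 1 and 286 in library 2 (269.6 ± 22.6, SD, n = 2) on mm9 chr9:46048927-46051541, and was the first protein coding gene by mean level. Apoa1, the main protein of HDL, had 169.6 and 266 RPKM (218 ± 68.4, SD, n = 2) and was the next. Both genes lie in the same apolipoprotein cluster. Alpi, the intestinal alkaline phosphatase of the brush border, had 46.1 and 51.2 RPKM. Fabp1, a fatty acid carrier, had 19.6 and 48.6. Krt20, a keratin of mature villus cells, had 23.4 and 26.0. All 5 were higher in library 2, most of all Fabp1.

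Genes of fat uptake and export were on in 18 of 20 cases, and none of the 20 had a marked promoter. The median was 6.21 RPKM in library 1 and 14.1 in library 2, against 0.330 and 0.228 over all genes. Apob, the core protein of chylomicrons, had 28.1 and 26.3 RPKM. Mttp, which loads lipid onto Apob, had 13.8 and 30.6. Dgat1, which makes triglyceride, had 13.8 and 26.9. Only Scarb1 (0.396 and 0.114 RPKM) and Cd36 (0.131 and 0.205), both lipid receptors, were below the limit. Fabp2, the intestinal fatty acid carrier, had 21.95 and 68.6 RPKM, a gap wider than that of most of the list.

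Brush border genes were on in 20 of 21 cases with none marked. Sis, which encodes sucrase-isomaltase, had 20.2 RPKM in library 1 and 41.5 in library 2. As a gene of 78.3 kb it took 0.251% and 0.5003% of the reads summed over the 24016 genes. By the mean of both this was the third share after Rn45s and Malat1. Vil1, the actin bundler of microvilli, had 10.2 and 16.2 RPKM, and Mgam, a maltase, had 9.77 and 14.5. Lct, the lactase of suckling animals, was the exception at 0.273 and 0.367 RPKM. All 21 genes were higher in library 2, where 10833 of 24016 genes were higher.

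Of 18 nutrient transporters and their partners, 14 were on. Slc5a1, the sodium-glucose cotransporter, had 11.6 and 25.3 RPKM, and Rbp2, the retinol carrier of the gut, had 20.3 and 51.0. The fructose transporter Slc2a5 had 2.85 and 6.83. Cybrd1, the iron reductase of the brush border, was the only marked member, with a region of 1 kb, and had 0.567 and 0.372 RPKM. Slc10a2, the bile acid transporter of the ileum, had 0.112 and 0.0969 RPKM. Trpv6, a calcium channel, had 0.0957 RPKM in library 1 and no read in library 2.

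All 20 regulators of intestinal identity and enterocyte genes were on and unmarked. Creb3l3, a factor of lipid metabolism, had 14.0 RPKM in library 1 and 39.1 in library 2. Klf5 had 15.4 and 19.4, Elf3 15.2 and 18.9, and Hnf4a 8.13 and 9.18. Cdx2, the intestinal homeobox factor, had 4.96 and 6.02 RPKM. Gata4, which marks the proximal gut, had 4.00 and 5.22 RPKM and was unmarked too. Of 20 genes of fatty acid oxidation and its PPAR targets, 17 were on, among them Ucp2 (27.4 and 36.0 RPKM). Fgf21, a fasting hormone, was the marked member, with 0.0428 RPKM in library 1 and no read in library 2.

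**Figure D1:**
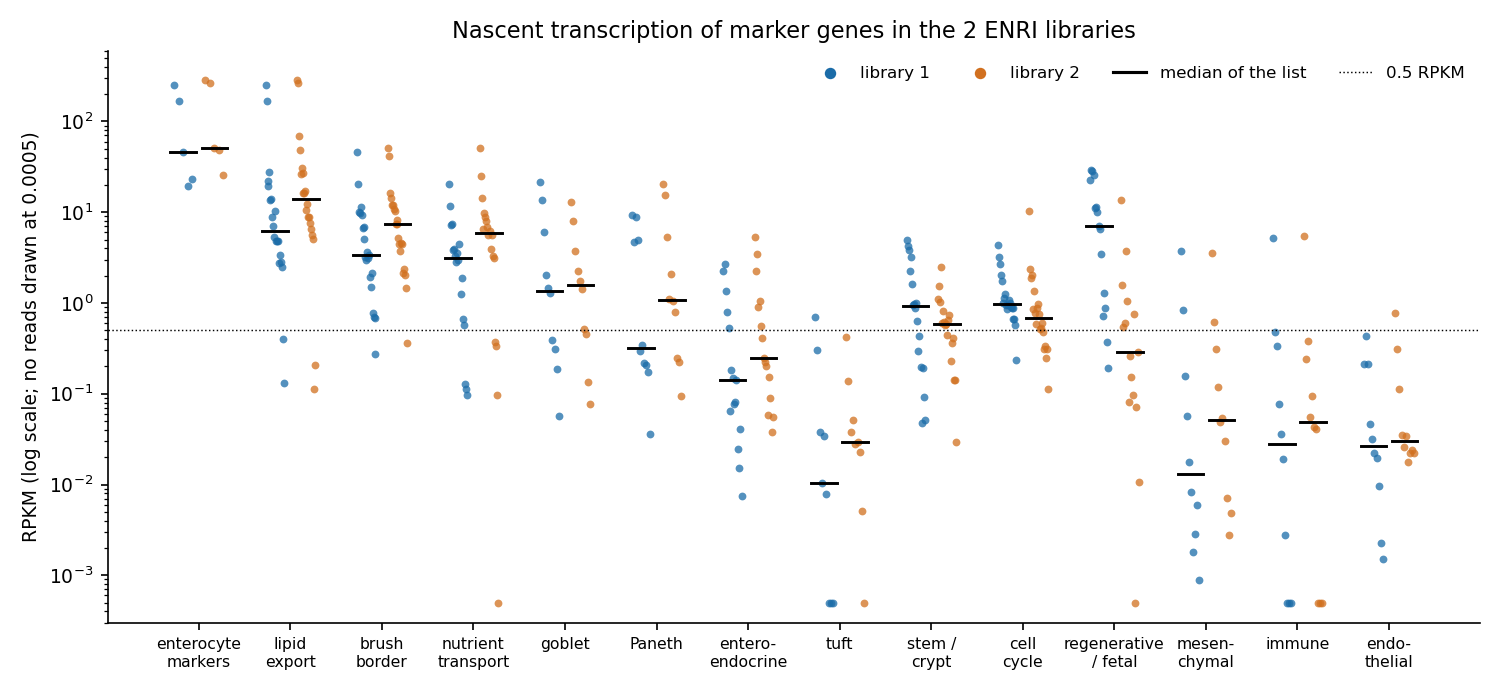
RPKM of each gene (points, log axis) in library 1 and library 2 for the lists of enterocyte functions and of other cell types; horizontal bars are the list medians and the dotted line is 0.5 RPKM. The enterocyte markers have medians of 46.1 and 51.2 RPKM, while the tuft, mesenchymal, immune and endothelial medians lie under 0.1 in both libraries, and the regenerative list has medians of 7.07 and 0.285.

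Beyond the lists, the protein coding genes of highest level combined enterocyte genes with stress, metal and general genes. Actb had 138 and 109 RPKM. Mt1 and Mt2, metallothioneins that bind zinc, had 65.8 and 164, and 35.4 and 110.0 RPKM. Txnip, which responds to glucose, had 98.9 and 76.1. The antimicrobial lectin gene Reg1 had 66.9 and 104 RPKM, though reads of close Reg copies may be shared. Immediate early genes were present as well: Fos had 38.7 and 53.1 RPKM, and Zfp36, which destabilises inflammatory mRNAs, had 51.8 and 101. Hspa8, a chaperone, was higher in library 1 (97.7 and 34.3 RPKM). None of the 30 protein coding genes of highest mean level was marked. Over all protein coding genes with a mean of 10 RPKM or more, 2 of 384 were marked (0.521%).

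Among the noncoding RNAs of highest level were ribosomal, long nuclear and small nucleolar RNAs, and Rmrp, another noncoding RNA of 274 bases. Rn45s, the precursor of ribosomal RNA, had 1703 and 1689 RPKM and took 1.57% and 1.52% of reads. Malat1, an abundant nuclear RNA, had 832 RPKM in library 1 and 179 in library 2. Neat1, the scaffold of paraspeckles, had 220.0 and 272, and Rmrp 709 and 564. Snord55, a small nucleolar RNA within a host gene's intron, had 1264 and 159 RPKM, while Snora64 had 133 and 1088. Values of such short RNAs include reads of the host gene and differ between the libraries in both directions. Protein coding genes held 94.6% and 95.3% of reads, and the 100 genes with the most reads held 11.9% and 13.9% (12.9% ± 1.35, SD, n = 2).

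Markers of the other epithelial cells were measured in the same libraries, where 38.6% of all genes were on and 8.76% were marked. Of 10 goblet cell genes 6 were on, led by Zg16 (21.6 and 12.9 RPKM), Fcgbp (13.5 and 8.03) and the mucin gene Muc2 (2.03 and 2.27). Atoh1, the factor that starts secretory fate, lay in a 9.06 kb region and had 0.394 and 0.515 RPKM. Of 10 Paneth cell genes 4 were on (40%), near the share of all genes, and none was marked. Lyz1, the Paneth lysozyme, had 0.298 RPKM in library 1 and 2.08 in library 2. Defa24 (9.31 and 20.7 RPKM) belongs to a family of near-identical defensin genes, so its reads cannot be assigned with certainty. Of 15 antimicrobial and inflammatory genes 7 were on, among them Reg3b (31.5 and 45.5 RPKM). Duox2 and Duoxa2, the oxidase and its partner, share an 11.1 kb region and had 0.236 and 0.0107, and 0.327 and 0.0636 RPKM.

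Of 15 enteroendocrine genes 6 were marked (8.76% of all genes were). The number on was 5, or 33.3%, near the 38.6% of all genes, and the median was 0.143 RPKM in library 1 and 0.247 in library 2. Chgb and Chga, granule proteins of hormone cells, were both marked and on: Chgb had 1.37 and 3.44 RPKM beside a 1.501 kb region, and Chga had 0.802 and 0.901 beside 6.66 kb. Isl1, an endocrine factor, lay in a 20.1 kb region with 0.0150 and 0.0888 RPKM, and Neurod1 in 6.95 kb with 0.0774 and 0.222. Sct, the gene of secretin, was unmarked at 2.26 and 5.28 RPKM. Which cells carried the mark and which the transcription was not tested. No tuft cell gene of 9 was on, and 3 were marked, among them Pou2f3, the factor tuft cells need (0.0340 and 0.0279 RPKM, 5.06 kb region). With the narrow list the marked count was 7 for tuft and 10 for enteroendocrine genes.

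Stem and crypt genes were on in 10 of 18 cases, and 5 were marked. Over all genes 38.6% were on and 8.76% were marked. Lgr5, the receptor that marks crypt stem cells, was unmarked with 0.194 and 0.142 RPKM, and Olfm4 had 0.0476 and 0.407. Ascl2, a stem cell factor that answers Wnt, lay in a 4.46 kb region and had 0.197 and 0.363. Axin2, a feedback inhibitor of Wnt, was marked over 4.27 kb and on, with 0.959 and 0.620 RPKM. Ephb2 (1.255 kb region) had 0.970 and 0.571. Sox9, shared by crypt and Paneth lists, was unmarked with 4.89 RPKM in library 1 and 1.12 in library 2. Cell cycle genes were on in 14 of 20 cases with none marked: Mki67 had 2.71 and 1.88 RPKM, and Pcna 4.40 and 10.4.

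Markers of cells outside the epithelium were near 0 with a few exceptions. None of 10 endothelial genes was on, and their summed level was 0.987 RPKM in library 1 and 1.37 in library 2. Pecam1 had 0.0197 and 0.0176 RPKM. Of 10 immune genes only Cd68 was on (5.25 and 5.47), and Cd3e and Gzmb had no read in either library. The immune sums were 6.20 and 6.33 RPKM. Of 10 mesenchymal genes Tagln (3.76 and 3.54 RPKM) and Acta2 (0.838 and 0.615) were on, while Pdgfra, which lay in an 18.4 kb region, had 0.00598 and 0.00276 and Col1a1 0.0176 and 0.0488. The mesenchymal sums were 4.85 and 4.73 RPKM.

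Genes of injured or fetal-like epithelium differed widely between the libraries. Of 15 genes of that kind, 14 were higher in library 1 (42.1% of all genes were), with a median log2 ratio of 2.74 against 0.00 over all genes. Ly6a, which encodes Sca-1, had 10.0 RPKM in library 1 and 0.0804 in library 2, a ratio of 124 with an exact 95% interval of 48.5 to 458. Clu, a marker of revival cells, had 28.5 and 0.538 RPKM (ratio 53.0, interval 43.9 to 64.5). Ctgf, a YAP target, had 25.7 and 0.606 (ratio 42.4, interval 29.8 to 62.6), and S100a6 29.2 and 1.58. Intervals cover counting error only, since 1 library is set against 1 library, and they leave out the spread between mice or batches. PCR copies were not removed by molecular identifiers, so the intervals may be too narrow for counting error too. The mesothelin gene Msln, which is on no list, had 14.8 and 0.144 RPKM and the keratin gene Krt7 11.5 and 1.04.

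Among protein coding genes with a mean of at least 5 RPKM, those higher in library 2 had smaller ratios. Pck1, the gluconeogenic enzyme, had 3.72 and 17.4 RPKM, 4.68 times as much in library 2 (interval 4.28 to 5.13). Gstm1 and Gstm3, glutathione transferases, had 8.01 and 31.7, and 5.36 and 21.8 RPKM. Cat, the catalase gene, had 2.40 and 8.39. Rps27 and Rps27rt are near-identical copies and cannot be told apart. The gap ran across functions: 18 of 20 fat export genes and all 21 brush border genes were higher in library 2, while 17 of 20 cell cycle genes and 12 of 18 stem genes were higher in library 1. The libraries also differ in batch, in depth, in Xist and in the Y-linked genes, and the part of each in these gaps was not tested.

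**Figure D2:**
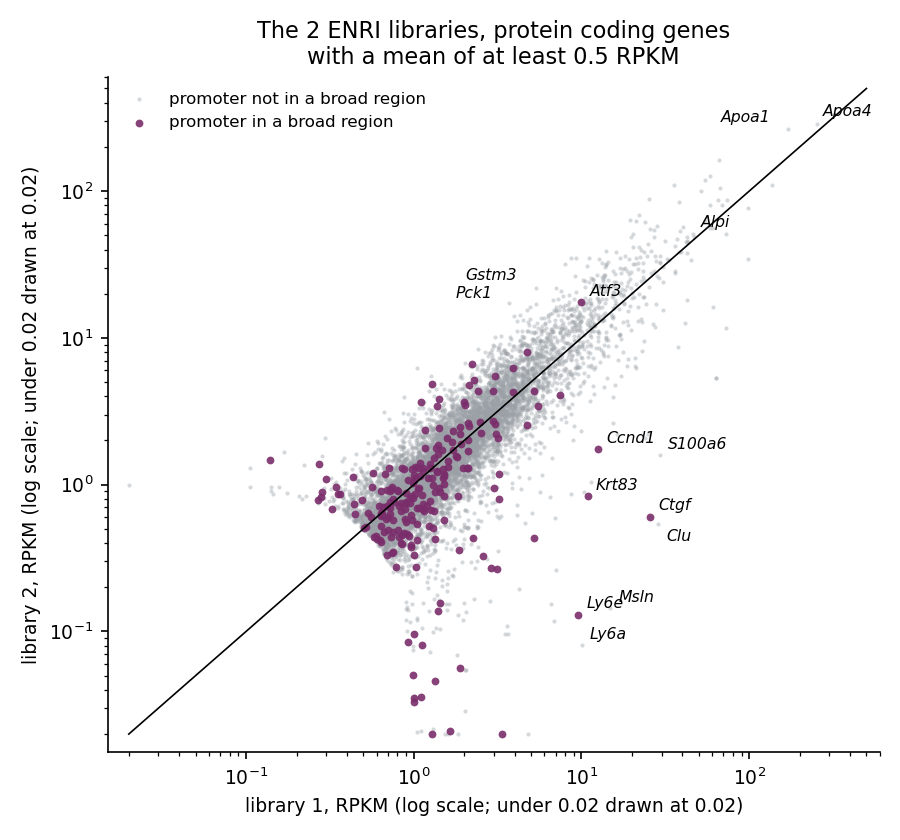
RPKM of each protein coding gene with a mean of at least 0.5 RPKM in library 1 (x axis) and library 2 (y axis), both on log axes; dark points have a broad H3K27me3 region within 2 kb of the start and the line is equality. Ly6a, Msln, Clu and Ctgf lie far below the line, at 0.0804, 0.144, 0.538 and 0.606 RPKM in library 2, and Apoa4 and Apoa1 lie at the upper end without the mark.

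The broad H3K27me3 list held 6094 regions on 21.3 Mb. It came from 29839015 tags, of which 3.44% fell in the regions. The median length was 1260 bp, and 2899 regions (47.6%) had the shortest length the caller allows, 1 kb. The authors' fold over input had a median of 4.80, close to the 4-fold that the caller requires, and ranged up to 48.23. The second list, called with a narrower window, held 55544 regions with a median of 500 bp and 8.55% of tags. Of the broad regions 92.4% touched a narrow one, whereas 13.8% of narrow regions touched a broad one.

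Broad regions at promoters were a minority by number and a majority by length. Of the 6094 regions 1802 (29.6%) lay within 2 kb of a gene start, and these made up 65.2% of the covered sequence. A further 1523 lay in gene bodies away from a start and 2769 outside genes, each with a median length of 1 kb. The share at a promoter was 10.0% for regions of 1 kb and 92.0% for the 100 regions of 30 kb or more, and a longer region can reach more starts by its length alone. Tags per kilobase had a median of 13.1 in the shortest class and 17.2 in the longest, while the median fold was 4.78 and 4.49.

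Marked genes were transcribed at a lower level than unmarked genes in both libraries. The median of the 2104 marked genes was 0.0240 RPKM in library 1 and 0.0365 in library 2, and that of the 21912 unmarked genes was 0.419 and 0.2996. The unmarked median was thus 17.4 times the marked one in library 1 and 8.20 times in library 2. Of marked genes 160 (7.60%) were on, against 9107 (41.6%) of unmarked genes. A level of at least 5 RPKM was reached by 9 marked genes (0.428%) and by 1251 unmarked ones (5.71%). Of marked genes 184 (8.75%) had no read in either library, against 2898 (13.2%) of unmarked genes. The order of these shares changed with gene length. For bodies under 2 kb, 46.2% of marked and 55.5% of unmarked genes had no read. For bodies of 2 to 20 kb the shares were 12.5% and 8.23%, and for 20 kb or more 0.379% and 0.522%.

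The size of the difference in the share of genes on varied with gene length too. For bodies of 2 to 20 kb, 12.1% of 904 marked genes and 48.5% of 9354 unmarked genes were on. For bodies of 20 kb or more, the shares were 3.32% of 1055 and 43.1% of 8808. For bodies under 2 kb the gap was smaller, with 11.0% of 145 marked and 20.6% of 3750 unmarked genes on, and the median of the mean level was 0.0115 RPKM for marked genes and 0 for unmarked genes. The place of the region also went with the level: where the start lay inside the region, 5.27% of 1518 genes were on, and where the region lay within 2 kb without covering the start, 13.7% of 586 were. Genes with only a narrow region at the promoter resembled those in broad regions, with 8.85% of 2668 on. Of 19244 genes with neither, 46.1% were on.

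**Figure D3:**
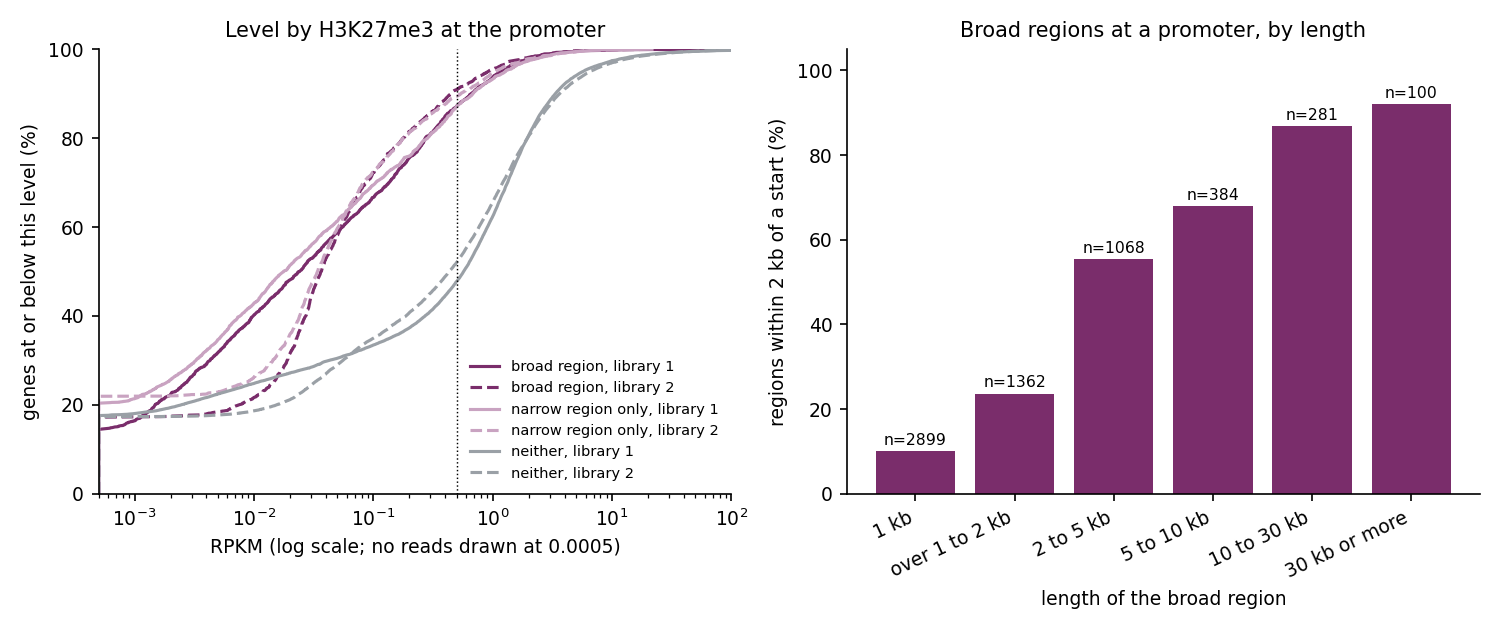
Left, the percentage of genes at or below each RPKM (log axis) for genes with a broad region, only a narrow region or neither within 2 kb of the start, in library 1 (solid) and library 2 (dashed); right, the percentage of broad regions within 2 kb of a start by region length, with the number of regions above each bar. The broad and narrow curves lie close together and left of the curve for neither, and the bars go from 10.0% at 1 kb to 92.0% at 30 kb or more.

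Seen from the level, the mark was most frequent from 0.01 to 0.05 RPKM. Below 0.01 RPKM 9.76% of 4334 genes were marked (exact 95% interval 8.89 to 10.7), and from 0.01 to 0.05 RPKM 19.4% of 4000 genes were (18.2 to 20.6). The 3082 genes without a read in either library all fall below 0.01 RPKM. Both classes lie below the level of 3 reads on 1 kb (0.103 and 0.190 RPKM). Which of them a gene falls in therefore also depends on its length, and the part of length was not tested. The share was 11.0% from 0.1 to 0.5 RPKM, 1.71% from 1 to 5, and 0.544% (3 of 551) at 10 RPKM or more (0.112 to 1.58). Of the 1000 genes with the highest mean level 6 were marked, and of the highest 5000, 63 were.

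**Figure D4:**
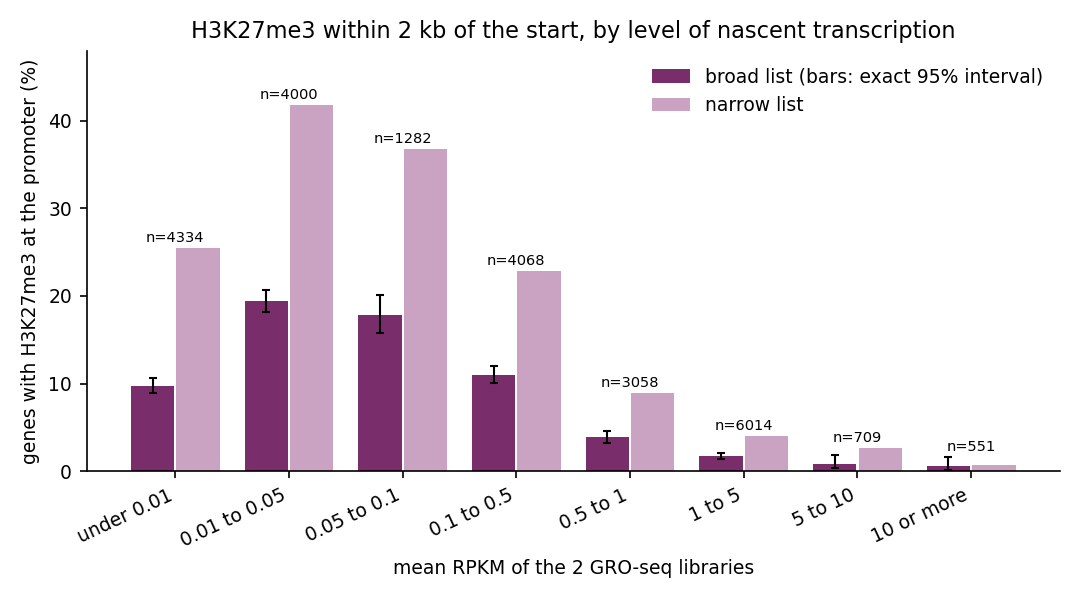
Percentage of genes with H3K27me3 within 2 kb of the start by mean RPKM of both libraries, for the broad list (dark, with exact 95% binomial intervals) and the narrow list (light); n is the number of genes in each class. The broad share is 19.4% between 0.01 and 0.05 RPKM and 0.544% at 10 RPKM or more.

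Among marked genes, the length and the density of a region went with the level weakly and in opposite directions. Split by region length into 4 classes of 526 genes, from the shortest to the longest, the share of genes on was 9.32%, 7.79%, 7.22% and 6.08%. Split by tags per kilobase, it was 5.70% in the sparsest class and 9.89% in the densest, with medians of 0.0138 and 0.0521 RPKM in library 1 and 0.0332 and 0.0431 in library 2. The density classes also differ in gene length, with a median of 24.0 kb in the sparsest and 10.1 kb in the densest. From the shortest to the longest region class, the median gene length was 23.3, 31.4, 28.0 and 8.05 kb. Genes without a read in either library made up 7.22%, 6.65%, 5.70% and 15.4% of these classes. The part of gene length was not tested. Spearman's rho across the 2104 genes between region length and level was -0.07 in library 1 and -0.13 in library 2. For tags per kilobase it was 0.12 and 0.05, and for fold -0.01 and -0.00. These genes share 1 H3K27me3 library, and neighbouring genes share regions.

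Of the 5 longest regions 4 covered the Hox clusters, which encode the factors that set position along the body axis. The Hoxc region (mm9 chr15:102729029-102980593) ran over 251.6 kb, the Hoxa region (chr6:52099518-52244645) over 145.1 kb, the Hoxb region (chr11:96110077-96247876) over 137.8 kb and the Hoxd region (chr2:74481519-74604787) over 123.3 kb. All 39 Hox genes were marked, 2 were on and 5 had no read in either library (12.8% of all genes had none). Hoxb5 had 1.25 RPKM in library 1 and 0.777 in library 2, and Hoxb6 had 1.32 and 0.660. Hoxb4 (0.876 and 0.470 RPKM) and Hoxb3 (0.692 and 0.329) came next in that cluster. The most transcribed Hox genes thus sat in the middle of the Hoxb region, under the mark.

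The clusters differed among themselves and between the libraries. All 9 Hoxc genes were under 0.1 RPKM, the highest being Hoxc6 with 0.0888 and 0.0274. Hoxd3 and Hoxd4 had 0.995 and 0.999 RPKM in library 1 but 0.0506 and 0.0353 in library 2. Hoxa10 had 0.921 and 0.0853, while Hoxa4 went the other way with 0.0851 and 0.628. Of the 39 genes 30 were higher in library 1, 4 in library 2 and 5 had no read. Hoxd3 had 1051 reads in library 1 and 29 in library 2, Hoxd4 209 and 4, and Hoxa10 259 and 13. Hoxd4 lies inside the counted transcript of Hoxd3 on the same strand, so both share reads and are not separate observations. The count of 30 of 39 does not allow for such overlaps. Hoxa4 rests on few reads, 5 and 20, as do the Hoxc genes.

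**Figure D5:**
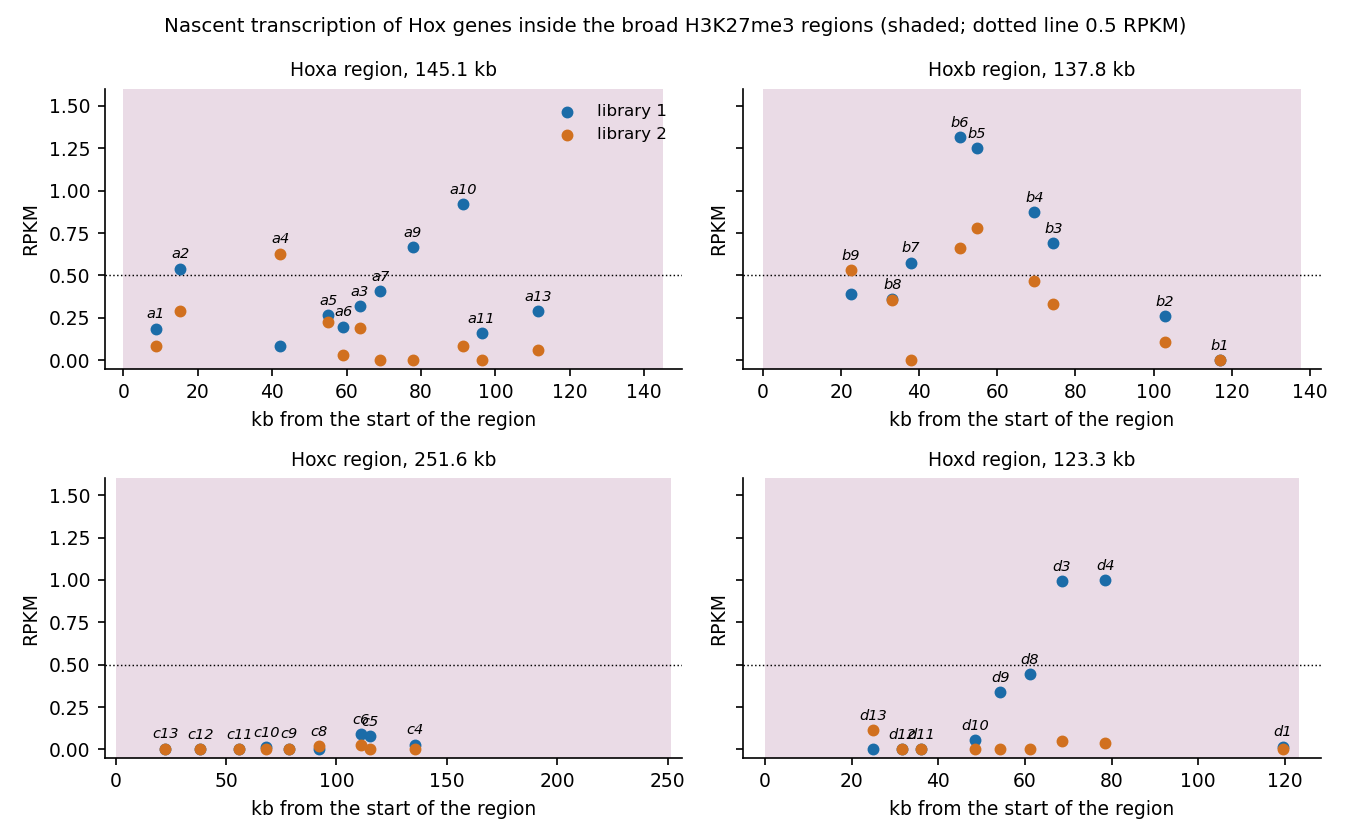
RPKM of the Hox genes in library 1 and library 2 (y axis) by the distance of their start from the left end of the broad region (x axis, kb; shaded), for the Hoxa, Hoxb, Hoxc and Hoxd regions; the dotted line is 0.5 RPKM. Hoxb5 and Hoxb6 are above the line in both libraries, the Hoxc genes lie near 0, and Hoxd3 and Hoxd4 are near 1 RPKM in library 1 only. Hoxd4 lies inside the counted transcript of Hoxd3, so both share reads.

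Other long regions lay on developmental regulators. Pax2, a factor of kidney and hindbrain, lay in a region of 154.9 kb (chr19:44710385-44865266) with 0.0964 and 0.0236 RPKM. En2, a midbrain factor, lay in 103.7 kb with 0.0159 and 0.0294, Lbx1 in 95.04 kb, and Pax3, a neural crest factor, in 91.8 kb with 0.00967 and 0.0125. Lhx2, whose CpG-rich promoter is printed above, lay in 86.3 kb (chr2:38150141-38236430) with 0.00451 and 0.0208 RPKM. The others of the 15 longest covered Csf2rb and Tex33, Camsap2, Cdh22, Hoxb13 with Gm11538, and a stretch of chromosome 9 with no gene start. A 105.4 kb region on chromosome 7 held 9 starts, among them Fgf21 and the fucosyltransferase genes Fut1 and Fut2, of which 1 gene was on.

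Of 49 neural developmental factors 42 were marked and 1 was on, and of 45 mesodermal factors 30 were marked and 6 were on. Nkx6-2, a neural homeobox factor, was the neural gene on, with 1.58 and 2.07 RPKM inside a 25.4 kb region. Among mesodermal factors Foxc1 was the only marked gene on (1.196 and 0.715 RPKM, 13.1 kb). The other 5 were unmarked and included Gata4, Gata5 (3.29 and 2.83 RPKM) and Tbx3 (1.70 and 2.01). Sox2, Sox1 and Nkx2-1 had regions of 32.7, 49.7 and 32.8 kb and no read in either library. Of 28 Wnt ligands and secreted antagonists 16 were marked and 4 were on. Wnt4 was unmarked with 2.18 and 1.73 RPKM, Wnt16 and Wnt2b were marked and on, and Wnt6 and Wnt10a shared a 42.1 kb region with 0.118 and 0.123, and 0.0170 and 0.0156 RPKM. Wnt3, the Paneth ligand of the small intestine, was unmarked with 0.0344 and 0.0867 RPKM.

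Genes of the Polycomb machinery were themselves mostly on and unmarked. Of 11 PRC2 genes 10 were on. The catalytic subunits Ezh2 and Ezh1 had 1.04 and 0.651, and 1.00 and 0.799 RPKM, so they lay close together. Eed and Suz12, the core partners, had 1.68 and 1.84, and 1.52 and 1.06 RPKM. The histone binders Rbbp4 and Rbbp7 had 1.495 and 0.9993, and 2.32 and 2.22. The accessory genes ranged from Phf1 (1.69 and 3.06) over Jarid2 (1.78 and 1.98), Aebp2 (1.31 and 0.866) and Mtf2 (1.05 and 0.691) to Phf19, the only marked member (0.363 and 0.354 RPKM, 2.39 kb region). Of 19 PRC1 genes 14 were on and 3 were marked, Cbx6, Bmi1 and Yaf2 (38.6% of all genes were on and 8.76% marked). Of 12 H3K27 demethylase and trithorax genes 11 were on and none was marked. Kdm6b, a demethylase that removes H3K27me3, led them with 5.76 and 8.96 RPKM.

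The cell cycle inhibitors split at the Cdkn2 locus. Cdkn2a, which encodes p16 and p19 and is a textbook PRC2 target, lay in a region of 27 kb and had 0.610 RPKM in library 1 and 0.192 in library 2. Its neighbour Cdkn2b, which encodes p15, had no region within 2 kb of its start and had 9.13 and 11.1 RPKM. Cdkn1a, the p21 gene, had 11.3 and 8.76 and was unmarked. Cdkn1b (1.96 and 1.72), Cdkn1c (1.23 and 0.794) and Cdkn3 (1.45 and 1.07) were on, Cdkn2d had 1.34 and 0.415 RPKM and Cdkn2c 0.123 and 0.0431. Cdkn2a was the only marked gene of the 8. The 15 housekeeping genes were all on and unmarked.

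A small set of genes carried a region near the start and high transcription. The marked gene of highest level overall was the small nucleolar RNA Snora68, with 118 RPKM in library 1 and 66.6 in library 2, which was named after its value was seen. Among protein coding genes Atf3, a stress-induced factor, had the highest mean level, with 9.97 RPKM in library 1 and 17.6 in library 2 (mm9 chr1:192994176-193007212). Its region of 2.13 kb did not cover the start. Slc26a10, a transporter-like gene, had 4.75 and 8.03 RPKM with its start inside a 14.9 kb region. Tpm1, a tropomyosin, had 7.43 and 4.11, Rasl10a 3.90 and 6.26, Arpc5 of the actin nucleator 5.23 and 4.37, and Cdc42ep1 5.49 and 3.45, the latter pair with the start outside the region. For these 6 genes both libraries were above 0.5 RPKM.

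The other 4 of these 10 genes were high in library 1 above all. Ctgf (1 kb region over the start) had 25.7 and 0.606 RPKM. Ccnd1, the cyclin of G1, had 12.5 and 1.75 beside a 4.96 kb region, the keratin gene Krt83 had 10.9 and 0.831, and Ly6e 9.54 and 0.131. Among marked protein coding genes with a mean of at least 0.5 RPKM, 10 of 214 were at least 4-fold higher in library 1 and none in library 2, with 0.5 RPKM added. The corresponding counts for unmarked genes were 40 and 2 of 9050. Ly6e was above 0.5 RPKM in library 1 only, and by library 2 alone Ctgf and Krt83 lay just above it.

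The promoter regions of highest fold over input were short and held no Hox cluster. The fold is a ratio to input. The median input was 7 tags in broad regions of 1 kb and 201 in those of 10 kb or more. The part of low input in this order was not tested. Away from promoters the fold reached 19.57 in gene bodies and 37.31 outside genes. Among regions at promoters the highest was 48.23 for the 1.26 kb region beside Fam196a, a region of 17.8 normalized tags. Fam196a had 0.730 and 0.442 RPKM. Next came 12.29 for the region shared by Cited1, which had no read, and Gm14858 on chromosome X. Sntb1 (11.83), Fndc3c1 (11.05), Hapln1 and Dixdc1 (10.92 each), Siglech (10.62), Ttc28 (10.47) and Kcna2 (9.80) followed, with regions of 1 to 4.24 kb. Among them the level in library 1 ran from no read in Cited1 to 0.730 RPKM in Fam196a. The Hox regions had folds of 5.04 to 5.62.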

How the data were processed

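The deposited files used here are on mm9. The GRO-seq table holds 2 columns for each library, per the file headers: reads scaled by the authors to a common total (a read signal, as HOMER 4.3 writes it), and RPKM (4 columns, not used here). FastQC, Bowtie, HOMER and edgeR are named in the submitters' processing notes. Whole reads were recovered from the scaled values: 100% of the 16841 and 20762 low values checked lay within 0.1 of a whole number. Each symbol was represented by its longest transcript, and its RPKM was taken from its scaled reads, its length in kb and the column total. Whether counting used strand, and whether positions count from 0 or 1, is not given in the sources used here.

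H3K27me3 regions were called by the authors with HOMER on 1 library against input DNA, per the file headers. The broad list used windows of 1000 bp joined over 10000 bp, the narrow list 500 bp joined over 1000 bp, both with a 4-fold ratio over input. The deposited p-value of each region is a Poisson p-value over input computed by the authors, with a limit of 0.0001. Tag coverage (deposited as normalized tags), the fold ratio and the findPeaks score are the authors' values and describe regions within a list only. A gene was marked when at least 1 bp of a broad region lay within 2 kb of its start. No p-value was computed, since there is 1 group. The matching of regions and the recovery of reads were tested on simulated data. Binomial intervals are exact at 95%.

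The members and gene lists were chosen with earlier results of these data known. Named genes were the 30 protein coding and 10 noncoding genes of highest mean level, members of the lists, genes starting in the 15 longest regions, the 10 marked genes of highest level and of highest fold, and the 10 protein coding genes with the largest ratio each way between libraries among those with a mean of at least 5 RPKM and reads in both. Clone names were mostly left out. RefSeq gene records matched a promoter for 17930 of 24016 genes. Python 3.11.15, numpy 2.4.6, pandas 2.3.3 and scipy 1.17.1 were used. Alternatives covered the promoter window, the list, the score, the level limit, the transcripts and each library left out. Samples of the other medium, and the H3 and input libraries, were not analysed here. Some genes are not reported here.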

Additional observations from a re-analysis of the deposited data

How the results depend on the processing

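No paired analysis was possible because all libraries belong to 1 group and no columns carry a mouse number. Leaving out the library of each batch in turn gave a median of 0.0240 to 0.0365 RPKM for marked genes (0.0341 with both) and 0.2996 to 0.419 for unmarked genes (0.380), 9.13% to 12.8% of marked genes on (7.60%) and 43.4% to 47.4% of unmarked genes on (41.6%), since 1 library then decides the call. The 100 highest genes held 12.9% of reads and 11.4% among protein coding genes only. The share of genes marked, 8.76%, was 19.6% with the narrow list, 8.04% within 1 kb, 10.4% within 5 kb, 7.30% among regions with a score above 33 and 9.18% among protein coding genes. Marked genes on were 23.7% at a limit of 0.1 RPKM, 3.75% at 1 RPKM and 11.3% within 5 kb. Unmarked genes on were 57.5% at 0.1 RPKM, 28.4% at 1 RPKM, 46.0% with the narrow list and 45.9% among transcripts of at least 2 kb, and their median was 0.526 RPKM with the narrow list. The median region length was 500 bp in the narrow list. Regions at a promoter, 29.6%, were 9.95% with the narrow list, 27.2% within 1 kb, 33.9% within 5 kb and 34.9% among regions with a score above 33. Spearman's rho of the libraries was 0.80, and 0.90 with no filter on level. The 229 genes at least 4-fold apart became 62 at a mean of at least 5 RPKM, 405 with 0.1 RPKM added and 116 with 1 added. The other 35 alternative values of these results stayed within the spread or count limits. With the narrow list the marked members went from 3 to 7 in the tuft list, 5 to 10 in stem and crypt, 6 to 10 in enteroendocrine, 1 to 4 in goblet, 2 to 5 in regenerative, 1 to 4 in immune, 0 to 4 in endothelial, 3 to 7 in PRC1, 0 to 2 in fat export, 0 to 1 in regulators and 1 to 2 in cell cycle inhibitors. In each of these settings marked genes had the lower median and the lower share on. The split by gene length gave 1 exception for the median: for bodies under 2 kb it was 0.0115 RPKM for marked genes and 0 for unmarked genes.

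Depth limits the low end: 3 reads on 1 kb are 0.103 and 0.190 RPKM, so levels of short marked genes below this were not measurable. The cause of these shifts was not tested.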

Other observations

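The X chromosome held few H3K27me3 regions. There were 30 broad regions for 1049 genes on X, or 2.86 for each 100 genes, against 26.5 for each 100 genes on the 19 autosomes. Of X-linked genes 25 (2.38%) were marked, while the autosomes ranged from 6.15% to 13.8%. The narrow list gave 16.5 regions for each 100 genes on X and 242 on the autosomes. Input tags in the broad regions had a median of 5.52 per kb on X and 8 per kb on the autosomes, and 15.9% of X-linked genes were on against 39.8%. Xist was at 0.0165 RPKM in library 1 and 5.88 in library 2. Which mouse gave the H3K27me3 library is not given in the sources used here, and the part of X copy number in these counts was not tested.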
